A study of Mus musculus with 4 samples.

Results

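The genes described here encode the motors that move cargo and chromosomes along microtubules and actin: kinesins and their light chains, cytoplasmic dynein and dynactin, and the unconventional myosins. They were the rows of the deposited table whose gene name starts with Kif or Kifc and a digit, Dync, Dynl, or Myo and a digit, or is Klc1 to Klc4 or Dctn1 to Dctn6. That gave 92 of 21738 listed genes, among them 1 pseudogene (Dynlt1-ps1) and 1 gene for a protein that is not a motor subunit (Kif1bp). RNA bound by an antibody against 4E-T was compared with RNA bound by a control IgG, with 2 libraries per antibody, numbered Exp1 and Exp2 in the labels. 4E-T is an eIF4E-binding protein of processing bodies, cytoplasmic granules in which untranslated mRNAs collect. Both groups came from neurospheres, spheres of neural precursors that grow in suspension, kept for 7 days after isolation from the ventricular-subventricular zone of CD1 wild-type pups aged 7 or 8 days (postnatal day 7 or 8). The labels do not say whether animals were pooled or whether the libraries came from separate cultures, so a p-value here reflects only how much these 4 libraries varied, possibly for technical reasons.

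Kinesins use ATP to walk along microtubules, most of them toward the plus end, and fall into families that either carry vesicles and organelles or build and move the mitotic spindle. Cytoplasmic dynein carries cargo the other way. Its heavy chain holds the motor, while intermediate, light intermediate and light chains together with the dynactin complex attach cargo. Unconventional myosins work on actin filaments at membranes, filopodia and vesicles. Neural precursors use spindle motors at each division, and dynein and its regulators also move their nuclei.

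Recovered reads per library ranged from 72769612 to 85828188. All 10 stem cell and radial glia markers passed the minimum given below, with a median of 126 and 109 FPKM in 4E-T libraries 1 and 2, and 71.6 and 78.1 FPKM in IgG libraries 1 and 2. Markers of other lineages passed it too. Of 5 oligodendrocyte lineage markers 4 did, with Olig2 at 484 and 365 FPKM in 4E-T libraries and 337 and 289 FPKM in IgG libraries. So did 2 of the 3 ependymal and 2 of the 4 neuron markers that were listed, at no more than 6.78 FPKM. None of 5 endothelial and mural markers passed it, nor did either of the 2 microglia and blood markers that the table lists, of 5 looked for; the highest of these values in any library was 0.725 FPKM. Each FPKM value is relative to other genes of its library, so a lower value with 4E-T does not mean that fewer molecules were bound. Fewer cells with a transcript also cannot be told apart from less of it per cell. FPKM here are reads scaled to gene length and to a size factor for each library, not to its total reads. Their sums were 386934 and 350301 in 4E-T libraries 1 and 2, and 331404 and 323941 in IgG libraries 1 and 2, so they are not shares of a library. FPKM were tested as log2(FPKM + 1) with limma and adjusted by Benjamini-Hochberg over the 12585 genes that reached 1 FPKM in 2 or more libraries. A gene was called at an adjusted p under 0.05, and differences are 4E-T minus IgG, given with their standard error. On this scale the median tested gene was at 0.16.

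Most of the tested motor transcripts had higher FPKM in the 4E-T libraries. Of the 92 genes, 72 passed the minimum, and 49 of these were called higher and 7 lower with 4E-T, while 16 were not called. Among all tested genes 34.3% were called higher and 15.2% lower. The median log2 difference of the 72 was 0.54, and the differences ran from -1.10 for Dynlt3 to 2.61 for Kifc1. The difference within Exp1 had the same sign as that within Exp2 for 69 of the 72. These differences correlated at 0.947 over the 72 genes and at 0.850 over all tested genes, so agreement was general. In 54 of the 72 both 4E-T libraries lay above both IgG libraries and in 12 below, where 50.5% and 25.2% of all tested genes did so. Kif14 and Myo5b passed the minimum only through the 4E-T libraries and so had to be higher there; the other 70 held 47 higher and 7 lower calls. Median ratio scaling, which centred all tested genes at -0.00246, left 39 motor genes higher and 12 lower, where 22.8% of all tested genes were higher and 23.6% lower. Quantile normalisation left 44 higher and 12 lower, where 25.1% and 22.5% of all tested genes were. Under both scalings the share of motor genes called lower was below that of all tested genes.

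**Figure D1:**
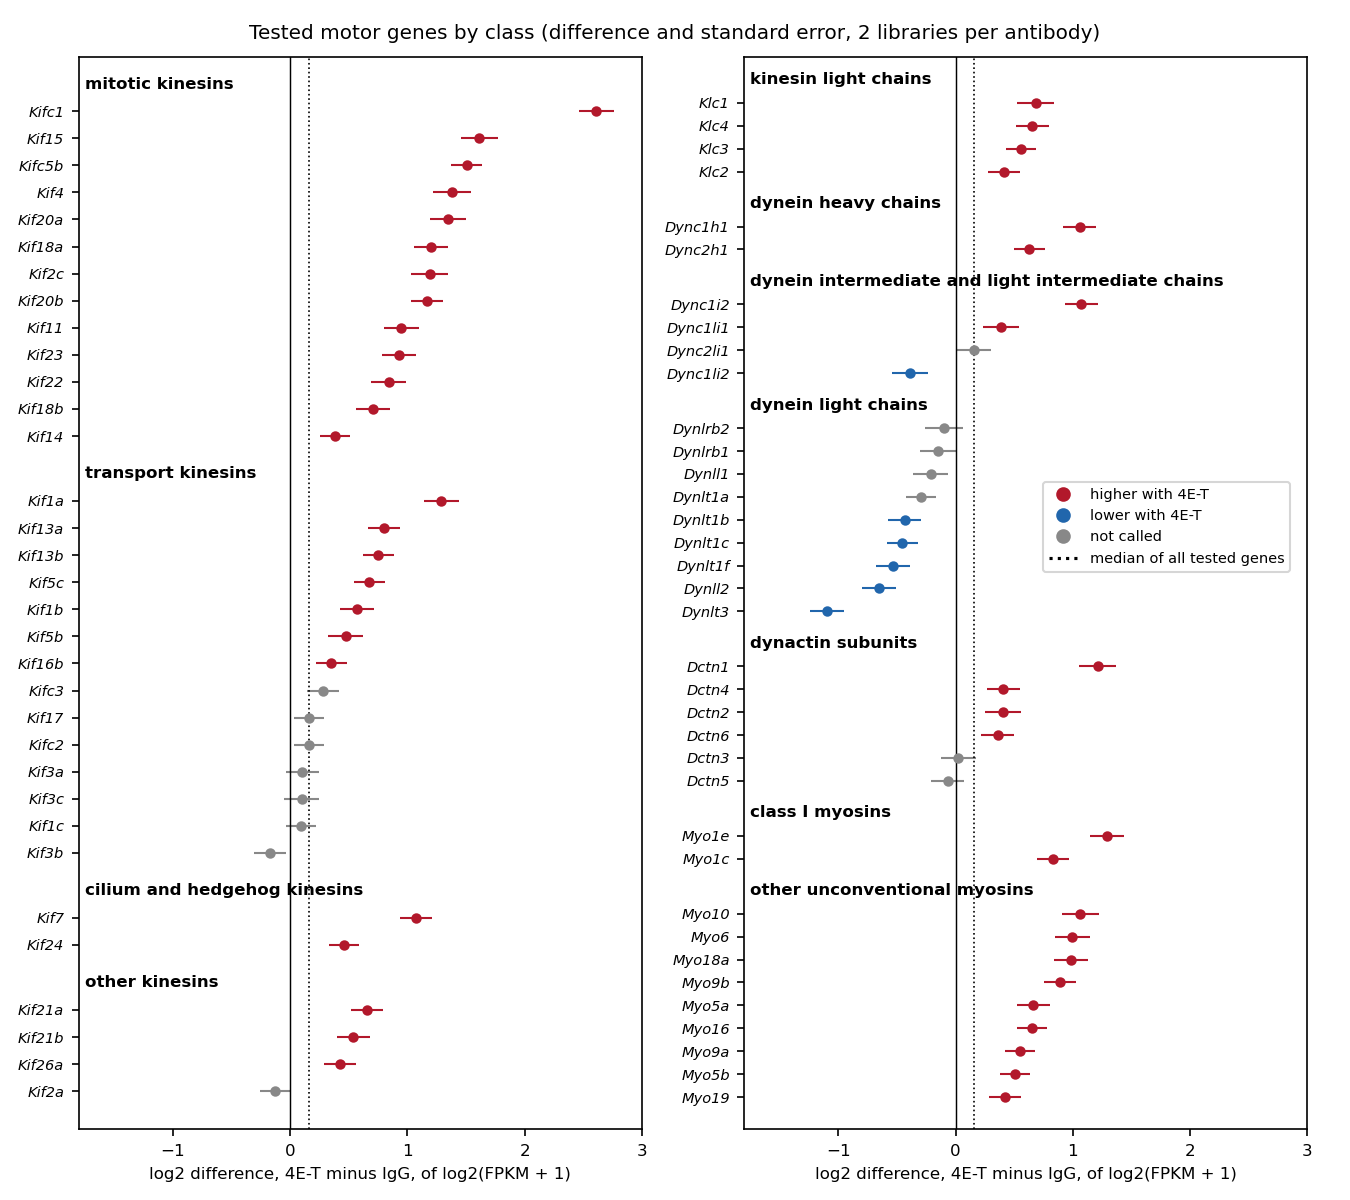
Log2 difference (4E-T minus IgG, of log2(FPKM + 1)) of tested motor genes in their classes, with Kif1bp, the pseudogene and 1 myosin not plotted, with its standard error from limma. Red points were called higher with 4E-T, blue points lower, and grey points were not called; the dotted line marks the median of all tested genes, 0.16. The 13 mitotic kinesins all lie above it, and the 9 dynein light chains all lie below 0.

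The kinesins of the mitotic spindle were all higher with 4E-T. All 13 were tested, all 13 were called higher, and their median log2 difference was 1.19, against 0.16 for all tested genes. Without Kif14, which passed the minimum only through the 4E-T libraries, 12 of 12 were called higher. Kifc1, a minus-end motor that bundles spindle microtubules and clusters spindle poles (ENSMUSG00000079553.10; chromosome 17, 33875664 to 33890633, GRCm38.p6), had 33.9 and 29.4 FPKM in 4E-T libraries, against 5.25 and 3.56 FPKM in IgG libraries. The 2 groups lay far apart, a 6.11-fold difference on the log2(FPKM + 1) scale (log2 difference 2.61 ± 0.15, limma adjusted p = 3.31e-12). Its near-identical copy Kifc5b had 9.80 and 9.56 FPKM in 4E-T libraries, against 2.96 and 2.56 FPKM in IgG libraries. Reads that match both copies may have been dropped or split by the authors' counting, so neither value is certain alone. A sum over the copies would not restore dropped reads. Summed over both, normalised reads were 8477 and 7578 in 4E-T libraries, and 1616 and 1211 in IgG libraries.

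Kif15, which helps keep the spindle bipolar (ENSMUSG00000036768.6; chromosome 9, 122951081 to 123018733), had 53.0 and 39.1 FPKM in 4E-T libraries and 16.2 and 12.4 FPKM in IgG libraries (log2 difference 1.61 ± 0.16, limma adjusted p = 8.03e-08). Kif2c, a kinesin that does not walk but takes microtubule ends apart at centromeres, had the highest mean level of the class. It had 117 and 85.1 FPKM in 4E-T libraries, against 42.5 and 43.7 FPKM in IgG libraries (log2 difference 1.19 ± 0.16, limma adjusted p = 7.70e-07). The 4E-T libraries differed from each other more than the IgG libraries did, yet both lay above both. Kif11, the plus-end motor that pushes the spindle poles apart, had 70.1 and 58.1 FPKM in 4E-T libraries and 36.0 and 29.5 FPKM in IgG libraries (log2 difference 0.95 ± 0.15, limma adjusted p = 9.43e-06). Kif23, the motor of the centralspindlin complex needed for cytokinesis, had 54.9 and 47.4 FPKM in 4E-T libraries and 28.6 and 24.2 FPKM in IgG libraries (log2 difference 0.93 ± 0.15, limma adjusted p = 7.64e-06).

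The remaining members of the class spanned the chromosome arms, the kinetochore fibres and the midbody. The chromokinesin Kif4 was higher by 1.38 ± 0.16 and the chromokinesin Kif22 by 0.84 ± 0.15 on the log2 scale. The cytokinesis motors Kif20a and Kif20b were higher by 1.35 ± 0.15 and 1.17 ± 0.14, and Kif18a and Kif18b, which dampen or shorten spindle microtubules, by 1.20 ± 0.15 and 0.71 ± 0.14. Kif14, a midbody kinesin, was near the minimum, with 1.08 and 1.18 FPKM in 4E-T libraries and 0.576 and 0.688 FPKM in IgG libraries, and its log2 difference was 0.38 ± 0.13 (limma adjusted p = 0.0136). The call of Kif14 was lost without IgG library 1 or 2, with median ratio scaling and after correction for gene length, where its difference was 0.027. The other 12 were called higher under each alternative in which they were tested. Together the class summed to 689 and 568 FPKM in 4E-T libraries, and 291 and 262 FPKM in IgG libraries.

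Genes expressed in G2 and mitosis often carry a CHR element (cell cycle genes homology region, TTTGAA) and CCAAT boxes near their start, through which their transcription follows the cell cycle. Promoter windows of 250 bases before to 50 after the start were at hand from RefSeq (GRCm38.p6) for 12 of the 13 mitotic kinesins. TTTGAA on either strand was found in 11 of the 12, all except Kif18a, and in 1 of 10 transport kinesins, against 20.2% of 27025 genes. CCAAT on either strand was found in 8 of the 12 and in 3 of the 10, against 41.1% of genes; the motifs were searched separately, and matches may share a letter at their ends. Stretches of the 60 bases just before the start are shown for 2 mitotic kinesins with the CHR letters close to the start and for 1 transport kinesin without either motif, 5′ to 3′ on the gene's strand, with TTTGAA or its reverse TTCAAA and CCAAT or its reverse ATTGG in capitals. A match of letters describes the window and was not tested as a binding site, and the libraries measure bound RNA, not transcription.
Kif11, chr19:37376322-37376381, plus strand: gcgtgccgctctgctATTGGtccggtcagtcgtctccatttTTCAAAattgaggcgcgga
Kif15, chr9:122951021-122951080, plus strand: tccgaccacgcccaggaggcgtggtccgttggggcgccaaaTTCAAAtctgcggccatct
Kif5c, chr2:49619226-49619285, plus strand: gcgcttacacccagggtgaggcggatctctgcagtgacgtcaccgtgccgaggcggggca

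The kinesins of vesicle and organelle transport were divided. Of 15 members 14 were tested, with a median log2 difference of 0.32. Of these, 7 were called higher, 0 lower and 7 were not called, where 34.3% of all tested genes were higher and 15.2% lower. Kif1a, the axonal carrier of synaptic vesicle precursors (ENSMUSG00000014602.15; chromosome 1, 93015455 to 93102039), stood above the others. It had 83.2 and 64.5 FPKM in 4E-T libraries, against 29.5 and 29.3 FPKM in IgG libraries (log2 difference 1.29 ± 0.15, limma adjusted p = 9.92e-08). Kif13a, an endosome carrier, had 46.0 and 43.3 FPKM in 4E-T libraries and 25.7 and 24.7 FPKM in IgG libraries (log2 difference 0.80 ± 0.14, limma adjusted p = 3.26e-05). For both genes the 2 antibodies did not overlap. Their relatives Kif13b and Kif1b were higher by 0.75 ± 0.13 and 0.57 ± 0.14. After correction for gene length Kif13a was at 0.50 and Kif13b at 0.40, both still called, while Kif1b was at 0.18 and not called (limma adjusted p = 0.179). The difference of Kif1c, another kinesin-3 motor, was 0.097 ± 0.13 and not called, and its sign turned with median ratio scaling (-0.012).

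Kif5b, the ubiquitous kinesin-1 heavy chain, was the most abundant transport kinesin. It had 84.1 and 80.8 FPKM in 4E-T libraries and 63.3 and 55.1 FPKM in IgG libraries (log2 difference 0.47 ± 0.15, limma adjusted p = 0.00965). Kif5b was no longer called when IgG library 2 was left out (limma adjusted p = 0.178), with median ratio scaling (0.0649), with quantile normalisation (0.0808) and after correction for gene length (0.131). Its neuronal relative Kif5c was higher by 0.68 ± 0.13 (0.37 and still called after correction for gene length), and the endosomal Kif16b by 0.35 ± 0.13, a call lost under 7 of its 13 alternatives. The heterotrimeric kinesin-2 motors, which carry material into cilia and along axons, lay near 0. Kif3a had 29.1 and 30.3 FPKM in 4E-T libraries and 27.8 and 27.3 FPKM in IgG libraries, and Kif3c had 40.3 and 33.2 FPKM in 4E-T libraries and 37.0 and 31.5 FPKM in IgG libraries. Kif3b had 9.72 and 8.63 FPKM in 4E-T libraries and 10.8 and 10.01 FPKM in IgG libraries (log2 difference -0.17 ± 0.14). None of these 3 was called, and the sign for Kif3a and Kif3c turned with median ratio scaling (-0.077 and -0.085), with which Kif3b was called lower (-0.34, limma adjusted p = 0.0259). The non-motor partner of this complex, Kifap3, was higher by 0.97 ± 0.15, with 34.6 and 27.2 FPKM in 4E-T libraries and 17.3 and 13.3 FPKM in IgG libraries.

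Among 6 kinesins of cilia and hedgehog signalling only Kif7 and Kif24 were tested, and both were called higher. Kif7, a ciliary tip protein that regulates Gli factors, had 15.4 and 12.9 FPKM in 4E-T libraries and 6.12 and 6.22 FPKM in IgG libraries (log2 difference 1.07 ± 0.14, limma adjusted p = 4.72e-07). Kif24, which restrains ciliogenesis at the centriole, was lower in abundance and higher by 0.46 ± 0.13 (limma adjusted p = 0.00411), a call lost after correction for gene length (adjusted p = 0.169) and without IgG library 1 (adjusted p = 0.0695). The motile cilium genes Kif6, Kif9, Kif19a and Kif27 stayed under 0.6 FPKM in each library and were not tested. Of 6 other kinesins 4 were tested. Kif21a and Kif21b, which slow microtubule growth, were higher by 0.65 ± 0.14 and 0.54 ± 0.14, and Kif26a by 0.43 ± 0.14. Without IgG library 1 Kif21a alone of these was called. The same held after correction for gene length, with differences of 0.37 for Kif21a, 0.18 for Kif21b (limma adjusted p = 0.220) and 0.12 for Kif26a (limma adjusted p = 0.539). Kif2a, a depolymerase of neurons and spindle poles and a relative of Kif2c, had 7.45 and 7.57 FPKM in 4E-T libraries and 8.70 and 7.88 FPKM in IgG libraries (log2 difference -0.13 ± 0.13, limma adjusted p = 0.458). Kif1bp, which binds kinesins without being one, was not called (0.097 ± 0.14), and its sign turned with median ratio scaling (-0.087).

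Kinesin light chains, which pair with Kif5 heavy chains and bind cargo, were all called higher, 4 of 4, with a median log2 difference of 0.60. Of all tested genes 34.3% were called higher. Klc1 (ENSMUSG00000021288.18; chromosome 12, 111758435 to 111807844) had 138 and 113 FPKM in 4E-T libraries and 79.4 and 75.6 FPKM in IgG libraries (log2 difference 0.68 ± 0.16, limma adjusted p = 0.000689). Klc4 had 27.2 and 25.3 FPKM in 4E-T libraries and 17.7 and 15.1 FPKM in IgG libraries (log2 difference 0.65 ± 0.14, limma adjusted p = 0.000370). The groups of both genes were apart, though the call of Klc1 narrowly failed without IgG library 2 (limma adjusted p = 0.0541). Klc3 and Klc2 were higher by 0.56 ± 0.13 and 0.41 ± 0.13, and the call of Klc2 failed when IgG library 1 or 4E-T library 2 was left out, with median ratio scaling and after correction for gene length. Over the 3 Kif5 genes the summed level was 90.3 and 86.2 FPKM in 4E-T libraries and 66.7 and 58.4 FPKM in IgG libraries, and over the 4 light chains 172 and 146 FPKM in 4E-T libraries and 101 and 95.6 FPKM in IgG libraries. The light to heavy ratio within a library was 1.91 and 1.69 with 4E-T and 1.52 and 1.64 with IgG, and was above both IgG values in both 4E-T libraries; the difference was not tested.

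**Figure D2:**
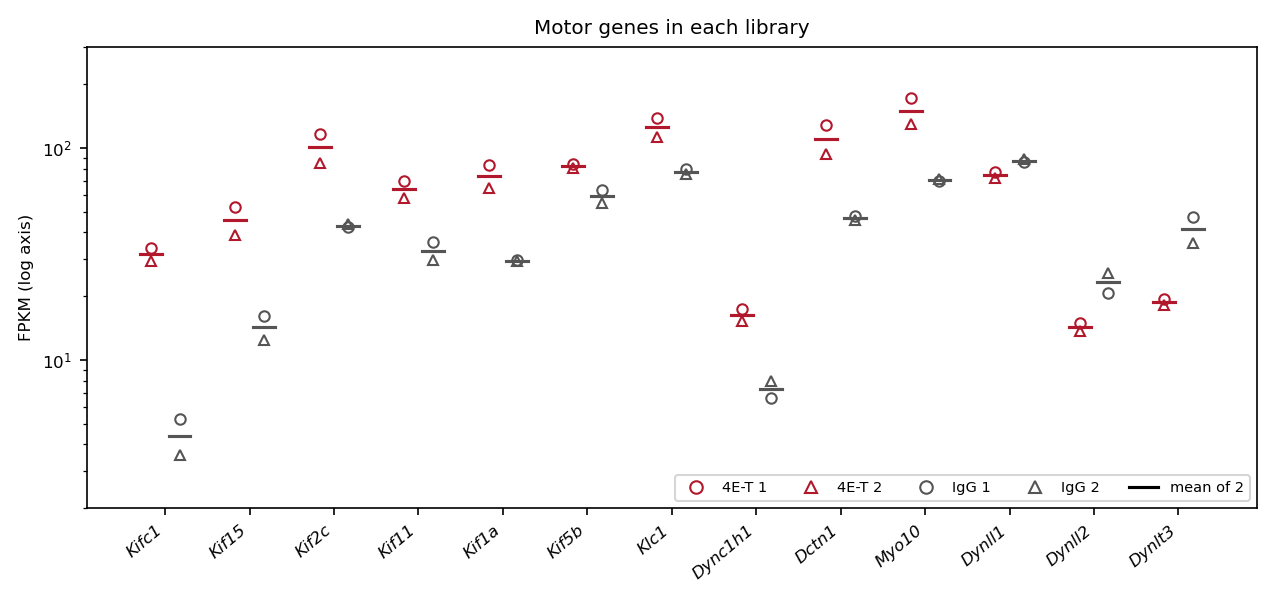
FPKM (log axis) of 13 motor genes in each library, with 4E-T left of IgG for each gene; circles are Exp1, triangles Exp2 and bars the mean of 2. Kifc1 is furthest apart, with 33.9 and 29.4 against 5.25 and 3.56 FPKM; Dynll1, Dynll2 and Dynlt3 have both 4E-T libraries below both IgG libraries.

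Subunits of cytoplasmic dynein went in opposite directions. The motor itself, Dync1h1 (ENSMUSG00000018707.13; chromosome 12, 110601395 to 110666944), had 17.4 and 15.2 FPKM in 4E-T libraries, against 6.64 and 8.01 FPKM in IgG libraries (log2 difference 1.06 ± 0.14, limma adjusted p = 7.73e-07). Dync2h1, the heavy chain of the dynein that returns cargo from the ciliary tip, had 5.17 and 4.59 FPKM in 4E-T libraries and 2.83 and 2.76 FPKM in IgG libraries (log2 difference 0.63 ± 0.13, limma adjusted p = 0.000245). Both heavy chains were called higher and did not overlap between antibodies. After correction for gene length Dync1h1, with 14342 bp of exons, was at 0.63 and still called (limma adjusted p = 0.00182), and Dync2h1 was at 0.20 and not called (limma adjusted p = 0.162). Intermediate and light intermediate chains link the motor to dynactin and to cargo adaptors. Of the 5 that the name rule takes in, 4 were tested. Dync1i2, the intermediate chain found in most cells, had 46.9 and 42.5 FPKM in 4E-T libraries and 20.9 and 20.6 FPKM in IgG libraries (log2 difference 1.07 ± 0.14, limma adjusted p = 5.85e-07).

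The paired light intermediate chains differed in sign. Dync1li1 had 59.9 and 53.7 FPKM in 4E-T libraries and 50.2 and 37.1 FPKM in IgG libraries, a log2 difference of 0.39 ± 0.15 (limma adjusted p = 0.0387). Dync1li2 had 42.6 and 38.6 FPKM in 4E-T libraries and 60.4 and 47.2 FPKM in IgG libraries, a log2 difference of -0.39 ± 0.15 (limma adjusted p = 0.0327). Both calls were weak: the first was lost without IgG library 2 (adjusted p = 0.526) and 4E-T library 1 (adjusted p = 0.150), and the second without IgG library 1 (adjusted p = 0.397) and 4E-T library 2 (adjusted p = 0.123). With median ratio scaling Dync1li1 was not called (0.20, adjusted p = 0.243) while Dync1li2 was still lower (-0.57, adjusted p = 0.00357). The ciliary Dync2li1 was not called (0.16 ± 0.14), and its sign turned with median ratio scaling (-0.021).

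Dynein light chains, small dimers that bind the intermediate chain and many other proteins, all had negative differences, Dynlrb2 excepted after correction for gene length (0.083) and without IgG library 1. Of 9 tested, 0 were called higher and 5 lower, with a median of -0.43, where 15.2% of all tested genes were lower. Of the 9, 4 are near-identical copies described below; without them 2 of 5 were lower and the median was -0.21. Dynlt3, a Tctex-type light chain (ENSMUSG00000031176.8; chromosome X, 9654270 to 9662983), had 19.3 and 18.1 FPKM in 4E-T libraries, against 47.5 and 35.6 FPKM in IgG libraries. It was 2.14-fold higher with IgG (log2 difference -1.10 ± 0.15, limma adjusted p = 9.68e-07). Dynll2, an LC8 light chain (ENSMUSG00000020483.14; chromosome 11, 87979525 to 88003817), had 14.9 and 13.8 FPKM in 4E-T libraries and 20.7 and 25.7 FPKM in IgG libraries (log2 difference -0.65 ± 0.14, limma adjusted p = 0.000444). These 2 were called lower under all alternatives.

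Dynll1, the other LC8 chain, had 77.5 and 72.4 FPKM in 4E-T libraries and 85.6 and 88.5 FPKM in IgG libraries, and was not called (-0.21 ± 0.15, limma adjusted p = 0.240). Dynlrb1, a roadblock-type chain and the most abundant of the class, had 100.1 and 93.0 FPKM in 4E-T libraries and 106 and 108 FPKM in IgG libraries (-0.15 ± 0.15, limma adjusted p = 0.435). Both were called lower once the library scale was centred on the tested genes (median ratio scaling, -0.40 and -0.34, limma adjusted p = 0.0170 and 0.0395). Dynlrb2 lay near the minimum and its groups overlapped. The Tctex1 genes Dynlt1a, Dynlt1b, Dynlt1c and Dynlt1f lie on chromosome 17 as near-identical copies, so reads that match several could be dropped or split. Dynlt1b, Dynlt1c and Dynlt1f were called lower, and Dynlt1a was not (-0.30 ± 0.13, limma adjusted p = 0.0569). Summed over the 4 copies and the pseudogene, which was itself called lower (-0.51 ± 0.14), normalised reads were 5171 and 4893 in 4E-T libraries and 6823 and 7510 in IgG libraries. Without IgG library 2 only Dynlt3 and Dynll2 were called lower, and with median ratio scaling 8 of the 9 were.

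Within a library the balance between dynein subunits therefore differed by antibody. The summed light chains stood at 278 and 258 FPKM in 4E-T libraries and 345 and 351 FPKM in IgG libraries. Per Dync1h1 that was a ratio of 16.0 and 16.9 with 4E-T, and of 52.0 and 43.8 with IgG. This ratio does not depend on the scaling of the libraries but was not corrected for gene length, and it was lower in both 4E-T libraries than in either IgG library. The fitted difference of Dync1h1 was 2.08-fold, as given on the log2 scale above.

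Dynactin, the complex that activates dynein and holds cargo, was led by its largest subunit. Of 6 tested subunits 4 were called higher and 0 lower, with a median of 0.38, where 34.3% of all tested genes were higher and 15.2% lower. Dctn1, which encodes p150Glued (ENSMUSG00000031865.16; chromosome 6, 83165909 to 83200118), had 128 and 93.7 FPKM in 4E-T libraries and 47.6 and 45.9 FPKM in IgG libraries (log2 difference 1.21 ± 0.16, limma adjusted p = 6.22e-07). Dctn2, the shoulder subunit dynamitin, had 104 and 89.5 FPKM in 4E-T libraries and 76.8 and 68.6 FPKM in IgG libraries (log2 difference 0.41 ± 0.15, limma adjusted p = 0.0286). The pointed-end subunits were uneven. Dctn4 was higher by 0.41 ± 0.14 and Dctn6 by 0.36 ± 0.14, while Dctn5 (-0.068 ± 0.14) and the shoulder subunit Dctn3 (0.021 ± 0.15) were not called and had overlapping groups. The sign of Dctn3 turned with median ratio scaling (-0.16). Only Dctn1 was called with median ratio scaling, with quantile normalisation, without 4E-T library 1 and without IgG library 2. The ratio of Dctn1 to Dctn2 within a library was 1.23 and 1.05 with 4E-T and 0.620 and 0.669 with IgG.

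Unconventional myosins above the minimum were called higher in every case, where 34.3% of all tested genes were. Among them Myo5b passed the minimum only through the 4E-T libraries and so had to be higher there. Of 7 class I myosins, single-headed motors that tie membranes to actin, 3 were tested and 3 called higher. Myo1e, which works in endocytosis and cell adhesion, had 22.8 and 18.0 FPKM in 4E-T libraries and 7.98 and 7.40 FPKM in IgG libraries (log2 difference 1.29 ± 0.14, limma adjusted p = 4.85e-08). Myo1c had 7.67 and 6.57 FPKM in 4E-T libraries and 3.76 and 3.36 FPKM in IgG libraries (log2 difference 0.83 ± 0.13, limma adjusted p = 1.11e-05). All 3 calls held under each alternative.

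Of 17 other unconventional myosins 9 were tested and 9 called higher, with a median of 0.66. Without Myo5b, 8 were tested and 8 called higher, with a median of 0.78. Myo10, the filopodial myosin (ENSMUSG00000022272.17; chromosome 15, 25622550 to 25813673), had the highest level of any motor gene in a 4E-T library. It had 171 and 129 FPKM in 4E-T libraries and 69.7 and 71.8 FPKM in IgG libraries (log2 difference 1.06 ± 0.16, limma adjusted p = 4.96e-06). Myo6, which moves toward the minus end of actin in endocytosis, had 63.6 and 49.2 FPKM in 4E-T libraries and 28.6 and 26.5 FPKM in IgG libraries (log2 difference 0.996 ± 0.15, limma adjusted p = 4.21e-06). Myo5a, a carrier of vesicles and RNA granules, had 31.0 and 28.9 FPKM in 4E-T libraries and 19.5 and 17.6 FPKM in IgG libraries (log2 difference 0.66 ± 0.14, limma adjusted p = 0.000269). The groups of these 3 genes did not overlap, and in all 3 the first 4E-T library was above the second.

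The RhoGAP myosins Myo9b and Myo9a were higher by 0.89 ± 0.14 and 0.55 ± 0.13, Myo18a of the Golgi by 0.98 ± 0.15, and Myo16 by 0.65 ± 0.13. The mitochondrial Myo19 was higher by 0.42 ± 0.14, a call lost without IgG library 1 or 2 or 4E-T library 2. Myo5b, the recycling endosome myosin, had 1.23 and 1.03 FPKM in 4E-T libraries and 0.521 and 0.471 FPKM in IgG libraries, and passed the minimum through the 4E-T libraries alone. After correction for gene length 4 of the 9 were called, namely Myo10, Myo18a, Myo6 (0.66) and Myo9b (0.58), while Myo5a was at 0.26 (limma adjusted p = 0.0673). Their median was then 0.34.

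Heavy and light chains were set against each other over all families. The 66 kinesin, dynein heavy chain and myosin genes gave 47 tested members, of which 39 were called higher and 0 lower (median log2 difference 0.71). The higher calls include Kif14 and Myo5b, which passed the minimum only through the 4E-T libraries. The 13 light chains gave 4 higher calls, the Klc genes, and 5 lower calls, dynein light chains (median -0.21), so the median heavy chain lay 0.92 above the median light chain. With the 4 near-identical Dynlt1 copies left out, 4 of 9 light chains were higher and 2 lower, with a median of -0.10. The contrast was one between dynein light chains and the rest, since kinesin light chains were on the side of the heavy chains. With median ratio scaling 34 heavy chains were higher and 2 lower (Kif2a and Kif3b), and 3 light chains higher and 8 lower, where all tested genes had 22.8% higher and 23.6% lower.

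The 2 groups also differed in transcript length, with a median exon length of 6032 bp for the heavy and 2176 bp for the light chains. Across all tested genes longer transcripts had larger differences: the median was -0.13 for genes under 1000 bp and 0.38 for those of 8000 bp or more. Within the range from 2000 to 4000 bp, where all 4742 tested genes had a median of 0.17, 11 heavy chains had a median of 0.84 with 7 higher and 0 lower calls. These 11 were 7 mitotic kinesins, all called higher (median 1.19), and 4 transport kinesins, of which 0 were (median 0.16). In that range 7 light chains had a median of -0.21 with 3 higher calls, all Klc genes, and 3 lower calls. Of the 4742 genes 1662 were called higher and 714 lower. Across the 47 heavy chains the correlation of the difference with log2 length was -0.23 (Pearson) and -0.15 (Spearman), as a description over genes that share libraries. After the length trend of each library was removed, the medians were 0.40 for heavy and -0.18 for light chains, with 26 heavy chains higher and 2 lower, against 25% of tested genes higher and 22% lower.

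**Figure D3:**
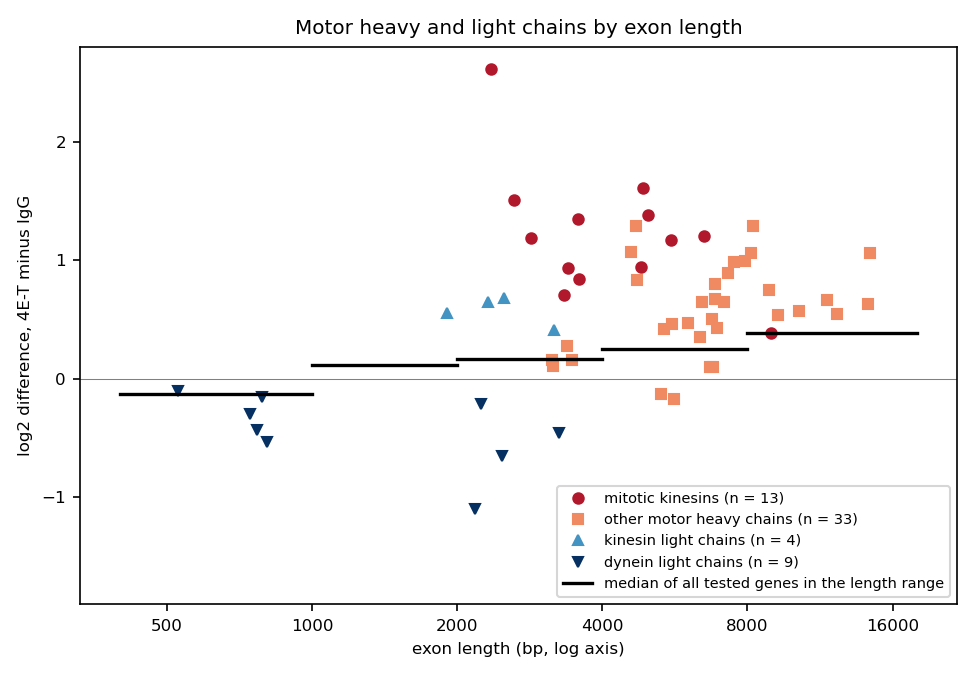
Log2 difference (4E-T minus IgG) of tested motor heavy and light chains against exon length in bp (log axis), with 1 myosin not plotted; black bars are the median of all tested genes in each length range. Between 2000 and 4000 bp the heavy chains have a median of 0.84 and the light chains of -0.21, while all genes there have 0.17. The heavy chains in that range are 7 mitotic kinesins (median 1.19) and 4 transport kinesins (median 0.16).

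Mitotic and transport kinesins were contrasted in the same way. All 13 mitotic kinesins were higher and 7 of 14 transport kinesins were, with medians of 1.19 and 0.32. Kif14 had to be higher, as it passed the minimum only through the 4E-T libraries. Without Kif14, 12 of 12 mitotic kinesins were higher, with a median of 1.20. Of all tested genes 34.3% were higher. The mitotic kinesins were the shorter transcripts, with a median of 3586 bp against 6534 bp. Correction for length gave medians of 0.93 and 0.098, with 12 of 13 mitotic kinesins higher and 0 lower, and 4 of 14 transport kinesins higher and 1 lower. After that correction 25% of all tested genes were higher and 22% lower. With median ratio scaling the medians were 1.01 and 0.16. Between 2000 and 4000 bp, 7 of 7 mitotic kinesins were higher (median 1.19) and 0 of 4 transport kinesins (median 0.16). The 2 classes overlapped all the same: Kif1a at 1.29 lay above 8 mitotic kinesins, and Kif14 and Kif18b lay below Kif13a.

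**Figure D4:**
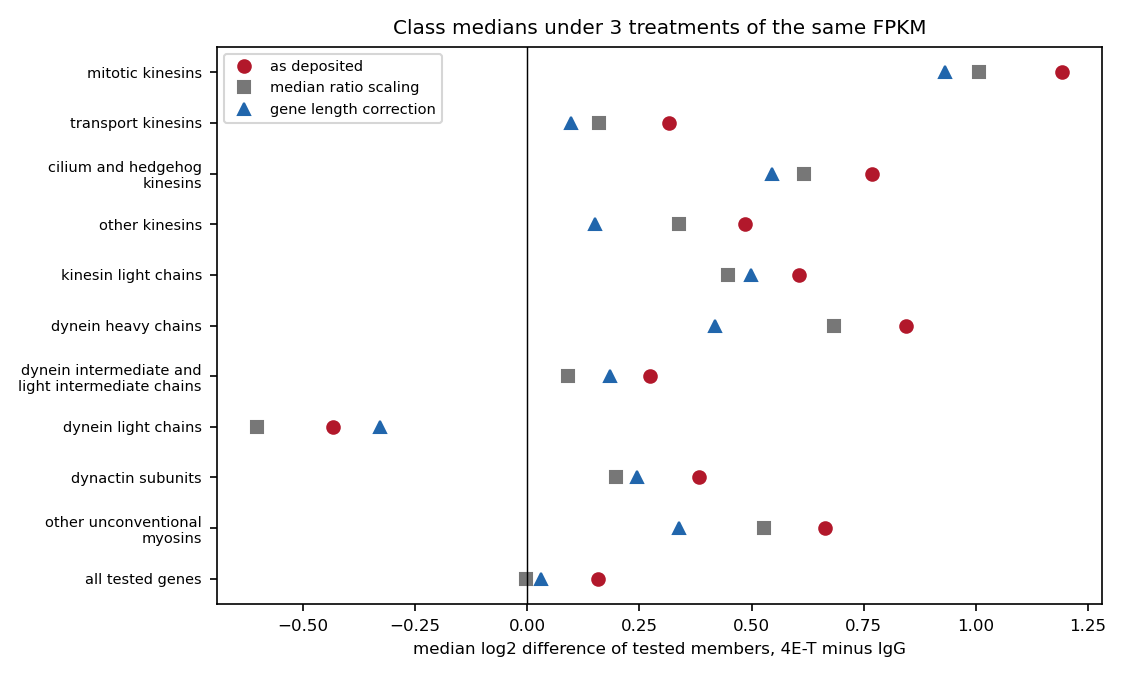
Median log2 difference (4E-T minus IgG) of the tested members of each class except the class I myosins, and of all tested genes, with FPKM as deposited (circles), with median ratio scaling (squares) and with the gene length correction (triangles). Mitotic kinesins stay between 0.93 and 1.19 and dynein light chains between -0.60 and -0.33.

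Adaptors, regulators and some motor subunits that the name rule does not take in were followed with a list of 43 motor partner genes. It includes the dynein subunit genes Wdr34, Wdr60 and Tctex1d2, which the dynein classes above leave out. Of 40 tested, 14 were higher and 5 lower, with a median of 0.23, close to the 34.3% and 15.2% of all tested genes. With median ratio scaling 11 were higher and 9 lower, and with quantile normalisation 11 and 11, near the shares of all tested genes under those scalings given above. Cenpe, a kinetochore kinesin that the name rule does not take in, had 63.7 and 53.1 FPKM in 4E-T libraries and 14.2 and 14.7 FPKM in IgG libraries (log2 difference 1.94 ± 0.14, limma adjusted p = 2.66e-11). Tpx2, which targets Kif15 and other motors to the spindle, had 163 and 119 FPKM in 4E-T libraries and 52.4 and 48.1 FPKM in IgG libraries (log2 difference 1.45 ± 0.16, limma adjusted p = 5.70e-08). Prc1 and Racgap1, the midzone partners of Kif4 and Kif23, were higher by 0.85 ± 0.15 and 0.77 ± 0.16, and the myosin chaperone gene Unc45a by 1.19 ± 0.14.

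Dynein regulators were mixed. Hook3, a dynein activating adaptor, had 6.75 and 8.03 FPKM in 4E-T libraries and 16.0 and 16.0 FPKM in IgG libraries (log2 difference -1.02 ± 0.14, limma adjusted p = 9.66e-07), although its transcript of 12836 bp is long. Its relative Hook2 was higher by 0.73 ± 0.13. Capza2 and Capza1, which cap the dynactin filament and actin filaments, were lower, with log2 differences of -0.61 ± 0.16 and -0.45 ± 0.15, but neither was called without IgG library 1 (limma adjusted p = 0.126 for Capza2 and 0.243 for Capza1). Ndel1, a dynein regulator, was lower (-0.39 ± 0.14), but not without IgG library 1 or 2 or 4E-T library 1 (limma adjusted p = 0.0951, 0.106 and 0.0807). Its relative Nde1 was not called (0.31 ± 0.15), nor were Pafah1b1, which encodes Lis1 (0.28 ± 0.14), and Spdl1, a dynein adaptor at kinetochores (0.29 ± 0.14). Calm2, one of the genes for calmodulin, the light chain of many unconventional myosins, was lower (-0.41 ± 0.17, limma adjusted p = 0.0484), and that call too was lost without IgG library 1 or 2 or 4E-T library 1 (limma adjusted p = 0.201, 0.304 and 0.0684). Without IgG library 1, Hook3 alone of the 5 was called lower.

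The 20 motor genes under the minimum reached at most 0.759 FPKM, the value of Kif5a in 4E-T library 1. In 6 of them both 4E-T libraries were above both IgG libraries, and in 7 both were below. The share of all genes under the minimum that did so was not counted, so neither count is read as a trait of motor genes. The myosin genes Myo1f, Myo3a and Myo15b had between 0 and 2 reads in 4E-T libraries and between 6 and 20 reads in IgG libraries. In the authors' deposited table, none of the 20 had an adjusted p under 0.05. That table called 55 of the 56 genes called here, in the same direction, and left out Dync1li1 (deposited adjusted p of 0.0685).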

How the data were processed

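RNA bound by anti-4E-T or control IgG was measured in 4 libraries and grouped by the labels' titles. Per the submitters' processing notes, the tools were STAR 2.6.0c, Trim Galore 0.5.0, DESeq2 1.26.0, FastQC 0.11.5, DESeq and HTSeq 0.6.1p2, with mm10 as the build; settings are not given in the sources used here. Per the labels' protocols, cDNA was made with SMART-Seq v4, a kit without strand information: where genes overlap or run antisense, their reads cannot be told apart. Per the file headers, 1 deposited table holds the FPKM of each gene in each library. Its baseMean column is the authors' signal, normalised reads averaged over libraries. From their DESeq2 comparison the authors also deposited the log2 fold change with its standard error, a test score, p-values and a linear fold.

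Together, FPKM and baseMean returned whole reads (within 0.01) for 100% of 86952 values, and exon lengths in bp scaled on 10 mitochondrial genes. limma 3.58.1 (R 4.3.3; trend and robust options, antibody as the only term) was fitted to log2(FPKM + 1) over 12585 genes. With 2 residual degrees of freedom per gene it borrows most of its variance estimate from other genes (27 prior degrees of freedom). The fit was tested on simulated data. Positions, chromosomes and promoters came from RefSeq. The members, classes and lists were chosen with earlier results of these data known, and no list was tested. Named were, per class, the largest 2 calls in each direction and the most abundant member, a set of well-known motors, and the 2 largest partner calls in each direction; others were chosen after their values were seen. The values of 1 motor gene are not reported here. There were 12 planned and 2 added alternatives.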

Additional observations from a re-analysis of the deposited data

How the results depend on the processing

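Among the genes named by the rule no difference changed sign under any alternative run; 8 other motor genes, none of them called, changed sign under at least 1. The count of called transport kinesins, 7 as reported, was 4 with an FPKM minimum of 5, where 8 members were tested. With that minimum 1 cilium and hedgehog kinesin, 2 kinesin light chains and 1 dynein heavy chain were tested and called. After correction for gene length 1 cilium and hedgehog kinesin, 1 dynein heavy chain, 2 dynactin subunits and 4 other unconventional myosins were called. With no filter on low values 1 dynein intermediate or light intermediate chain and 1 dynactin subunit were called. Under median ratio scaling, and likewise under quantile normalisation, dynein light chains had 8 calls and dynactin 1. With limma voom on the recovered reads, chosen after seeing the data and scaled to library totals, dynein light chains had 8 calls, dynactin 2 (1 higher and 1 lower) and cilium and hedgehog kinesins 1. The cause of these shifts was not tested.

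Leaving out 1 library at a time gave from 42 to 51 called motor genes, 12 to 13 mitotic, 5 to 7 transport, 1 to 2 cilium and hedgehog and 1 to 3 other kinesins, 3 to 4 kinesin light chains, 2 to 4 dynein light chains, 1 to 3 dynactin subunits, 5 to 8 motor light chains and 13 to 19 partner genes. Over the whole table it gave from 3661 calls, without IgG library 2, to 6014. The lone library of an antibody was then assumed to vary like the others. Of the 56 called motor genes, 37 were called without each library in turn and 32 under every alternative in which they were tested.

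Deviations of same-numbered libraries correlated at 0.064. With 2 libraries per antibody both numbers give this same value by construction, so they are not separate estimates. The value is small, and alone it does not decide whether the numbers mark a pairing. With the replicate number as a block (replicate block), 58 motor genes and 6844 genes of the whole table were called, against 56 and 6230 without it. No gene named by the rule changed its call; Dynlt1a became lower and Kifc3 higher, and of the partner genes Nde1, Pafah1b1, Spdl1, Fez2 and Actr10 became higher, for 24 partner calls. Motor genes under the FPKM minimum had at most 357 reads in a library, and depth limits what can be said of them.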
